A study of Mus musculus with 47 samples.

Results

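The genes that hold the G1 phase of the cell cycle open or closed were followed through every library of a bulk RNA-seq series of mouse medullary thymic epithelial cells (mTECs). They were taken by name and comprise the inhibitors of cyclin-dependent kinases Cdkn2a, Cdkn2b, Cdkn2c, Cdkn2d, Cdkn1a and Cdkn1b and the D-type cyclins Ccnd1, Ccnd2 and Ccnd3. All 9 were found in both deposited count tables, among 53402 genes listed for the adult and 55471 for the neonatal libraries, and all 9 passed the filter on low counts in both. The series asked how the transcription regulator Aire and Polycomb repressive complex 2 (PRC2), of which EED is a core subunit, shape gene expression in mTECs. Cells of C57BL/6 mice were sorted as DAPI-CD45-EpCAM+Ly51- and divided by surface MHC class II into mTEChi (high) and mTEClo (low), and profiled in 47 libraries.

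The adult libraries came from mice 4 to 6 weeks old: 7 mTEChi and 8 mTEClo libraries were wild type (WT, 4 or 5 weeks), and 4 mTEChi and 4 mTEClo libraries lacked Aire (AireKO, males of 5 or 6 weeks). The neonatal libraries came from mice 1 to 6 days old, several of them pooled over males and females. In mTEChi there were 5 control (Ctrl), 3 EEDcKO, 3 AireKO and 3 AireEEDdKO libraries. In mTEClo there were 3 Ctrl, 4 EEDcKO and 3 AireEEDdKO libraries. Aire was deleted in the germline, whereas in EEDcKO mice floxed Eed was deleted by Cre driven from Foxn1, which acts in the whole thymic epithelial lineage, cortical as well as medullary, from the fetal thymus on. AireEEDdKO mice carried both changes. Ages were not matched between neonatal groups: all AireKO and AireEEDdKO libraries were 4 or 6 days old, whereas 3 of the 5 mTEChi Ctrl libraries and all 3 mTEClo Ctrl libraries were 1 to 3 days old and the EEDcKO groups ran from 1 to 6 days. For mTEChi RNA-seq across genotypes, a figure legend of the paper takes each point as a single mouse, although some libraries are labelled as pooled. For the other libraries the sources do not say that those of a group came from separate animals. The p-values thus measure the spread between libraries, which may in part be technical.

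D-type cyclins bind CDK4 and CDK6, and the active kinases phosphorylate the retinoblastoma protein RB, which then releases E2F factors and lets the cell enter S phase. The INK4 proteins (p16, p15, p18 and p19, from Cdkn2a, Cdkn2b, Cdkn2c and Cdkn2d) block CDK4 and CDK6 by themselves, whereas the CIP/KIP proteins p21 (Cdkn1a) and p27 (Cdkn1b) chiefly block cyclin-CDK2 complexes. The Cdkn2a and Cdkn2b locus is a textbook target of Polycomb repression, Cdkn1a is a classic target of p53, and Cdkn2a also encodes ARF, which protects p53 from MDM2. In the thymus, mTECs turn over continually, and dividing precursors give rise to Aire-expressing cells that have largely left the cell cycle.

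On GRCm38 the members lie on 5 chromosomes, and their exon lengths are those of the union of annotated exons. Cdkn2a (ENSMUSG00000044303; chromosome 4, 89274471 to 89294653, minus strand) and Cdkn2b (ENSMUSG00000073802; 89306299 to 89311039, minus strand) are neighbours 11645 bases apart. Cdkn2c (ENSMUSG00000028551; 109660876 to 109667189, minus strand) lies farther along the same chromosome. Cdkn2d (ENSMUSG00000096472) is on chromosome 9 at 21288410 to 21291407, minus strand, and Cdkn1b (ENSMUSG00000003031) is on chromosome 6 at 134920401 to 134925513, plus strand. Cdkn1a (ENSMUSG00000023067; 29090976 to 29100727) and Ccnd3 (ENSMUSG00000034165; 47505051 to 47599691) are both on the plus strand of chromosome 17. Ccnd1 (ENSMUSG00000070348) is on chromosome 7 at 144929931 to 144939925 and Ccnd2 (ENSMUSG00000000184) on chromosome 6 at 127125162 to 127152193, both on the minus strand. Reads were counted without regard to strand, and 4 members share exonic bases with other genes: Ccnd1 shares 1100 with LTO1, Ccnd2 740 with Gm43126 and 9330179D12Rik, Ccnd3 361 with Bysl and Cdkn1a 273 with AC167363.2. The other 5 members share none.

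The Cdkn2a locus has 2 annotated starts that the counts cannot separate. The transcript that encodes ARF begins with an exon of 320 bases at 89294334 to 89294653, and the transcript that encodes p16 begins downstream with an exon of 207 bases at 89281986 to 89282192. They share 575 exonic bases, while 320 and 277 are private to the ARF and p16 transcripts, so every Cdkn2a value below is the sum of both. The RefSeq windows (GRCm38.p6, 250 bases before to 50 after a start, 5′ to 3′ on the gene's strand) are printed for the INK4/ARF locus, which holds Cdkn2a, the member with the largest difference after EED loss, and for Cdkn1a, which rose in the same libraries. Capitals mark CpG, the dinucleotide whose density is a known feature of Polycomb-bound promoters.
Cdkn2a, ARF start, chr4:89294570-89294869, minus strand: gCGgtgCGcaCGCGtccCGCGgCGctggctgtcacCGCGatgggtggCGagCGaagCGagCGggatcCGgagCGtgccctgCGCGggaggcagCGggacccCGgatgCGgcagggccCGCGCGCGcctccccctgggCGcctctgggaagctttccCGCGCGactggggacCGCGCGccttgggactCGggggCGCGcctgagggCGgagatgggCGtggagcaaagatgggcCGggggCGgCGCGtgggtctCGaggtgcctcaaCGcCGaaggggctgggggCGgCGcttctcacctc
Cdkn2a, p16 start, chr4:89282143-89282442, minus strand: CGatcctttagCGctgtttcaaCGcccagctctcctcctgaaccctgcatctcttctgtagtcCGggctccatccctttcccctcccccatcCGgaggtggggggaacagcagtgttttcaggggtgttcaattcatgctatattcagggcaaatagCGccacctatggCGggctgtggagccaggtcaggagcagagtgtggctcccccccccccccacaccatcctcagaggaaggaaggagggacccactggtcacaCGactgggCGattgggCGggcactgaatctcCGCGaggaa
Cdkn2b, chr4:89310983-89311282, minus strand: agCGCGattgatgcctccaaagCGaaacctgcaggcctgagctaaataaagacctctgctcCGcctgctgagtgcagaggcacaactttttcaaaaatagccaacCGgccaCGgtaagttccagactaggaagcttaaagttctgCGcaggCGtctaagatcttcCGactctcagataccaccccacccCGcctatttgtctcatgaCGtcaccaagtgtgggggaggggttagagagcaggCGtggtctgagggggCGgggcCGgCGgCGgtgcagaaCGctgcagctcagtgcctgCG
Cdkn1a, upstream start, chr17:29090729-29091028, plus strand: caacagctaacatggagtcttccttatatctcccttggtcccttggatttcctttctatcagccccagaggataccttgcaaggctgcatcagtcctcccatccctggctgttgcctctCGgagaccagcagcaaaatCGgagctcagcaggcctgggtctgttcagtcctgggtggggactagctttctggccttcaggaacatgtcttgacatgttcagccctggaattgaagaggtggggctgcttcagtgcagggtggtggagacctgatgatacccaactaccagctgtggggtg
Cdkn1a, downstream start, chr17:29093519-29093818, plus strand: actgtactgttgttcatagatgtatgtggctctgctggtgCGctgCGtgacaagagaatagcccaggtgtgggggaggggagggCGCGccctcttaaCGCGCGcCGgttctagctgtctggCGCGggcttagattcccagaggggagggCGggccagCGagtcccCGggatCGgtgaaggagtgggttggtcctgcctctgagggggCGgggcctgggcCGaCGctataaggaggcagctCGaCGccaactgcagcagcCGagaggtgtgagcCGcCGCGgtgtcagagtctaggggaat

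The ARF window holds 45 CpG, and 1.95% of all 32544 promoter windows hold as many or more, against a median of 7. The p16 window holds 12 and the Cdkn2b window 18, which 39.9% and 29.9% of windows reach. The Cdkn1a windows hold 2 CpG at the upstream and 23 at the downstream start. Among windows not printed, that of Cdkn1b holds 30 and that of Cdkn2d 22, and neither gene passed in neonatal EEDcKO against Ctrl. The Cdkn2c windows hold 33 and 8, and the Ccnd3 windows 15 and 28. A link of CpG count to the members' differences was not tested. The E2F motif TTTCCCGC, searched on both strands, occurred in the ARF window alone among the 11 windows of the 7 members with an entry (1.08% of all windows), and the other E2F form TTTGGCGC in none (0.519%). The GC box GGGCGG occurred in 9 of the 11 (35.9% of all), including both Cdkn2a windows and the Cdkn2b window, and TATAAA in none (13.6%). These matches describe the letters in the windows and not binding.

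Library totals were 1602125 to 3938588 counts in adults (median 2998595) and 1578579 to 4817418 in neonates (median 3020965). All 4 adult mTEChi AireKO libraries and replicates 3 and 4 of adult mTEClo AireKO had 0 counts over 37 mitochondrial genes, where the other 17 adult libraries had 6178 to 10339, so in adult mTEChi the genotype and this kind of library cannot be told apart. Aire was at 816 CPM (counts relative to the total of the library, scaled by TMM factors) in adult mTEChi WT and 28.4 in AireKO, and at 613 in neonatal mTEChi Ctrl and 70.0 in AireKO. Eed, counted over the whole gene, was at 28.9 CPM in neonatal mTEChi Ctrl against 14.7 in EEDcKO, and at 24.03 against 15.0 in mTEClo. Epithelial markers (Epcam, Krt8, Krt18, Foxn1) summed to 633 to 1517 CPM in all 47 libraries. The 5 markers of cortical epithelium (Psmb11, Prss16, Ly75, Ccl25, Ackr4), which the Ly51- gate should deplete, summed to 1512 to 2359 CPM in neonatal mTEClo Ctrl, above the 195 to 783 of every other group.

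Per kilobase of exon, Ccnd2 stood above every other member in all 11 groups, from 31.2 ± 5.00 CPM per kb (SD, n = 8) in adult mTEClo WT to 89.0 ± 4.33 (n = 3) in neonatal mTEChi EEDcKO. In adult mTEChi WT (n = 7) it was followed by Cdkn2b at 34.8 and Cdkn1a at 31.3 CPM per kb, then Cdkn1b at 16.7, Ccnd1 at 9.69, Cdkn2c at 8.71, Cdkn2a at 6.26, Ccnd3 at 4.07 and Cdkn2d at 4.00. In neonatal mTEClo Ctrl (n = 3) the order was Ccnd2 at 68.9, Cdkn1b at 17.0, Ccnd1 at 11.4, Cdkn1a at 10.8, Cdkn2b at 8.64, Ccnd3 at 4.23, Cdkn2d at 3.82, Cdkn2c at 2.87 and Cdkn2a at 1.02. Cdkn2a was thus the lowest member there, and with EED deleted it stood at 12.2 ± 1.50 CPM per kb (n = 4), close to Ccnd3 at 12.4 ± 1.42. Cdkn2d, which encodes p19 of the INK4 family, had group means of 6.01 to 10.1 CPM and passed none of the 16 comparisons, although its 95% interval lay above 0 in neonatal mTEClo EEDcKO against Ctrl (log2 0.74, 0.15 to 1.33) and in neonatal mTEChi AireKO against Ctrl (0.60, 0.04 to 1.15). Under alternatives it passed in the latter with age as a term (0.74, edgeR adjusted p 0.044) and in adult mTEChi AireKO against WT among males (0.77, edgeR adjusted p 0.018).

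**Figure D1:**
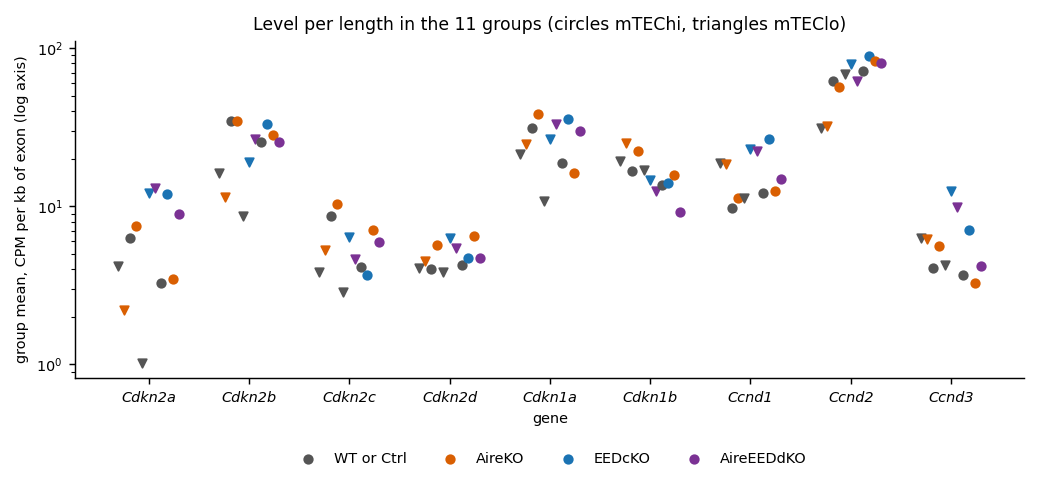
Group means of the 9 members in CPM per kb of exon on a log axis, with circles for mTEChi, triangles for mTEClo and colours for genotype. Ccnd2 lies at 31.2 to 89.0 CPM per kb in the 11 groups, and the lowest point is Cdkn2a in neonatal mTEClo Ctrl at 1.02.

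**Figure D2:**
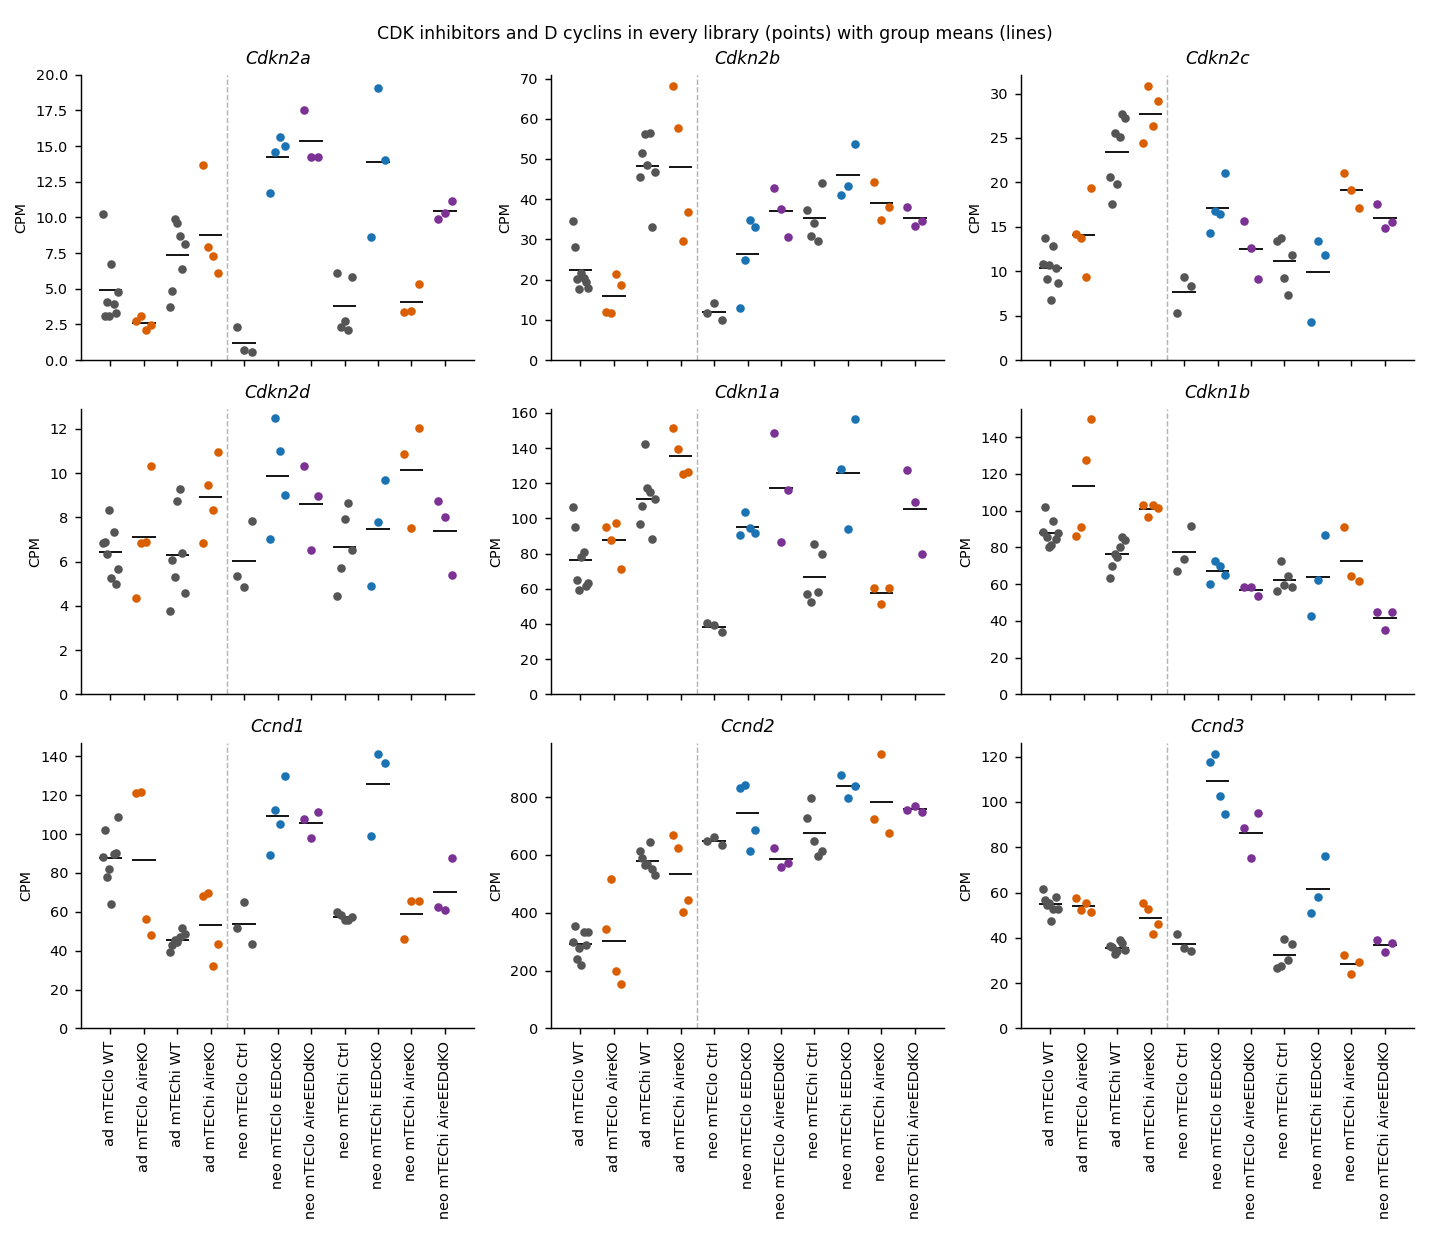
Every library (points) and group mean (lines) for each member in TMM-scaled CPM on linear axes from 0, adult groups left and neonatal groups right of the dashed line, which were scaled apart. Cdkn2a in neonatal mTEClo lies at 0.558 to 2.35 CPM in Ctrl and at 11.7 to 17.5 in the 7 libraries without EED.

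Deletion of EED in neonatal mTEClo raised 6 of the 9 members and lowered none. The INK4 genes Cdkn2a, Cdkn2b and Cdkn2c, the p21 gene Cdkn1a and the cyclins Ccnd1 and Ccnd3 rose, each at least 2-fold, with log2 fold changes of 1.02 to 3.43. Of all 20196 genes tested, 16.8% passed higher and 13.9% lower, and 15.7% passed with at least 2-fold in either direction. The median log2 fold change of the members was 1.14 and that of all genes -0.01. All 6 calls held under 8 of 8 alternative settings and with any 1 library left out. As these were bulk samples, a change in the mix of cells and a change in RNA per cell cannot be told apart.

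Cdkn2a was counted 7, 2 and 1 times in the 3 Ctrl mTEClo libraries, 2.35, 0.696 and 0.558 CPM, and stood at 11.7, 14.6, 15.7 and 15.0 CPM in the 4 EEDcKO libraries. Every EEDcKO library was above every Ctrl library. The fitted log2 fold change was 3.43 (SE 0.44, edgeR adjusted p 4.8e-06), and from the summed counts (210 against 10) the ratio was 11.1, with a 95% interval for counting error of 5.90 to 23.4. With 1 library left out the fold change ranged from 3.04 to 4.39 on the log2 scale.

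Its neighbour Cdkn2b, the p15 gene, was at 11.7, 14.3 and 10.0 CPM in Ctrl and at 13.0, 24.9, 34.9 and 33.0 in EEDcKO (log2 1.14, SE 0.26, edgeR adjusted p 0.0017). EEDcKO replicate 1 lay inside the Ctrl range and the other 3 lay above it. Replicates 1 (2 to 3 days) and 2 (1 day) were of Ctrl ages, while replicates 3 (6 days) and 4 (4 days) were older than every Ctrl library. Cdkn2c, the p18 gene, was at 5.36, 9.39 and 8.37 CPM in Ctrl and at 14.4, 16.8, 16.5 and 21.0 in EEDcKO (log2 1.17, SE 0.30, edgeR adjusted p 0.0047), without overlap. Cdkn2d had a fold change of 0.74 on the log2 scale (SE 0.30, edgeR adjusted p 0.063) and did not pass, though it did with age as a term (0.91, edgeR adjusted p 0.017).

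Cdkn1a was at 40.5, 39.7 and 35.2 CPM in Ctrl and at 90.5, 104, 94.8 and 91.6 in EEDcKO, which places the groups far apart relative to their spread (log2 1.30, SE 0.21, edgeR adjusted p 8.1e-05). The p27 gene Cdkn1b, of the same family, was at 67.3 to 91.5 CPM in Ctrl and at 60.1 to 72.7 in EEDcKO, and its log2 difference of -0.20 had a 95% interval of -0.55 to 0.14.

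Ccnd3 had the largest difference among the cyclins. Its levels were 41.9, 35.5 and 34.0 CPM in Ctrl and 118, 121, 102 and 94.9 in EEDcKO (log2 1.54, SE 0.16, edgeR adjusted p 4.4e-07). Ccnd1 was at 51.9, 65.1 and 43.5 CPM in Ctrl and at 89.2, 112, 105 and 130 in EEDcKO, again without overlap (log2 1.02, SE 0.17, edgeR adjusted p 8.9e-05). LTO1, which shares exonic bases with Ccnd1, had a log2 fold change of 0.11 in both fractions and did not pass. Ccnd2, the most abundant D cyclin, was at 636 to 662 CPM in Ctrl and 615 to 842 in EEDcKO and did not pass (log2 0.20).

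In neonatal mTEChi 5 members rose without EED and none fell, beside 19.1% of all genes higher and 13.6% lower, and 2 of them, Cdkn2a and Ccnd1, rose at least 2-fold (13.9% of all genes, either direction). The members' median was 0.38 on the log2 scale, that of all genes -0.001. Cdkn2a was at 6.14, 2.29, 2.73, 2.10 and 5.81 CPM in Ctrl and at 8.60, 19.1 and 14.04 in EEDcKO. The groups did not overlap, and the lowest EEDcKO library and the highest Ctrl library were both 6 days old (log2 1.92, SE 0.32, edgeR adjusted p 0.00012). Cdkn1a was at 52.7 to 85.7 CPM in the 5 Ctrl libraries and at 128, 93.9 and 156 in EEDcKO (log2 0.90, SE 0.18, edgeR adjusted p 0.0008).

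Ccnd1 was held in a narrow band in Ctrl mTEChi, at 59.7, 58.4, 55.9, 55.8 and 57.1 CPM, and reached 98.9, 141 and 137 in EEDcKO (log2 1.14, SE 0.15, edgeR adjusted p 1e-05). Ccnd3 was at 26.8 to 39.3 CPM in Ctrl and at 51.0, 58.1 and 76.1 in EEDcKO (log2 0.92, SE 0.15, edgeR adjusted p 9e-05). These 4 calls held under all 8 alternatives and with any 1 library left out. Ccnd2 sat at the threshold: it was at 595 to 796 CPM in Ctrl and at 877, 796 and 840 in EEDcKO, a log2 difference of 0.31 (SE 0.12) with an edgeR adjusted p that rounds to 0.05, and the call was lost in 7 of 8 alternatives. Cdkn2b (log2 0.38, 95% interval -0.03 to 0.80) and Cdkn2c (log2 -0.05, -0.59 to 0.49), which rose in mTEClo, did not pass in mTEChi.

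The difference between the fractions in their response to EED deletion was tested itself. No member passed by edgeR, beside 1.98% of all genes, and 0 passed by DESeq2. Cdkn2a had a log2 difference of differences, mTEChi minus mTEClo, of -1.51 (edgeR adjusted p 0.19), Cdkn2c of -1.22 (edgeR adjusted p 0.13), Cdkn2b of -0.75 and Ccnd3 of -0.62 (edgeR adjusted p 0.16). With age as a term Ccnd3 passed at -0.77 (edgeR adjusted p 0.018).

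Genes around the members in the pathway moved unequally. Of 18 genes of the RB pathway, 1 rose and 7 fell without EED in mTEClo, with a median log2 fold change of -0.29. Cdk6, a catalytic partner of the D cyclins, was the one that rose (log2 1.02, edgeR adjusted p 2.5e-06), and it rose in mTEChi as well (0.90, edgeR adjusted p 5.8e-06) together with Cdk4 (0.39, edgeR adjusted p 0.033). The repressor E2f8 fell by 1.21 on the log2 scale in mTEClo. In mTEChi 4 of the 18 rose and 4 fell (median -0.18), and Ccne2, the cyclin E2 gene, fell by 1.21 and Rb1 by 0.63 on the log2 scale.

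Of 18 genes of DNA replication and mitosis, 12 fell and none rose in mTEClo (median -0.81), and 7 fell and none rose in mTEChi (median -0.51). Top2a, a topoisomerase of dividing cells, fell by 1.35 and 1.41 on the log2 scale in mTEClo and mTEChi. Their summed level was 2000 to 2185 CPM in the mTEClo Ctrl libraries and 855 to 1532 in EEDcKO, and 1458 to 1887 against 605 to 1239 in mTEChi. Of 12 genes of the p53 pathway, 7 rose and none fell in each fraction, with medians of 0.39 in mTEClo and 0.51 in mTEChi. Phlda3, a p53 target that restrains AKT, rose by 1.45 and 1.49 on the log2 scale, and Trp53 itself by 0.38 and 0.91.

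At the INK4 locus, Dmrta1, a gene on the far side of Cdkn2b, rose in both fractions (log2 2.05 in mTEClo, edgeR adjusted p 7.5e-07, and 1.30 in mTEChi, edgeR adjusted p 0.00013), whereas Mtap, on the side of Cdkn2a, did not pass in either (-0.11 and 0.19). Cdkn1c, the p57 gene and the third CIP/KIP member, rose by 1.70 in mTEClo (edgeR adjusted p 0.00011) and by 1.23 in mTEChi (edgeR adjusted p 0.00058) on the log2 scale. Of 4 Polycomb genes, Bmi1, whose product belongs to PRC1 and is a known repressor of Cdkn2a, rose by 1.92 in mTEClo and 1.42 in mTEChi on the log2 scale, and Ezh2, the PRC2 methyltransferase, fell by 0.93 in mTEChi.

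The cellular makeup of the sorted fractions moved with genotype too. In mTEClo the 5 cortical epithelial markers summed to 1512 to 2359 CPM in Ctrl and to 228 to 783 in EEDcKO, and the 7 mesenchymal markers (Col1a1, Col1a2, Col3a1, Pdgfra, Pdgfrb, Dcn, Lum) to 131 to 134 against 559 to 833. In mTEChi the cortical sums were 364 to 749 in Ctrl and 195 to 270 in EEDcKO, and the mesenchymal sums 247 to 330 against 493.3 to 774.5. The 10 thymocyte markers summed to 27.3 to 40.4 CPM in mTEClo Ctrl and 20.5 to 42.8 in EEDcKO, and to 98.2 to 122 and 47.9 to 105 in mTEChi. Endothelial sums (5 markers) were 25.1 to 30.2 against 12.5 to 22.4 CPM in mTEClo, and myeloid sums (6 markers) 111 to 187 against 41.6 to 176. In mTEChi the endothelial sums were 43.5 to 66.6 in Ctrl and 30.6 to 36.2 in EEDcKO, and the myeloid sums 285 to 331 and 202 to 319. The 4 epithelial markers summed to 939 to 1388 CPM in mTEClo Ctrl and to 633 to 854.5 in EEDcKO. The 6 mature mTEC markers (Aire, Cd80, Cd40, H2-Aa, H2-Ab1, Fezf2) summed there to 1492 to 1623 and 925 to 1321. Neither sum overlapped in mTEClo, and both overlapped in mTEChi. Markers of mTEClo themselves (Krt5, Krt14, Ccl21a, Itgb4, Itga6) summed to 1170 to 1288 CPM in mTEChi Ctrl and to 1596 to 2005 in mTEChi EEDcKO, without overlap and with 4 of the 5 rising, and to 1275 to 1511 and 1496 to 2374 in mTEClo, with 2 of the 5 rising. In these Ctrl and EEDcKO groups no listed marker was at 0 in every library. Their part in the members' differences was not tested.

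In mTEChi that already lacked Aire, removal of EED (AireEEDdKO against AireKO) raised 2 members, Cdkn2a and Cdkn1a, and lowered Cdkn1b, where 9.80% of all genes passed higher and 7.03% lower, and 9.47% with at least 2-fold, Cdkn2a among them. The members' median log2 fold change was -0.04 and that of all genes 0.03. Cdkn1a was at 60.5, 51.2 and 60.5 CPM in AireKO and at 127, 109 and 79.9 in AireEEDdKO (log2 0.86, SE 0.22, edgeR adjusted p 0.0086). Cdkn1b was at 91.1, 64.2 and 61.6 CPM in AireKO and at 45.0, 35.0 and 44.9 in AireEEDdKO (log2 -0.78, SE 0.20, edgeR adjusted p 0.0091). Both pairs of groups were apart, although the Cdkn1a call was lost without AireEEDdKO replicate 1 and the Cdkn1b call without AireKO replicate 1. Cdkn2a, at 3.40 to 5.32 CPM in AireKO and 9.93 to 11.1 in AireEEDdKO (log2 1.29, SE 0.41, edgeR adjusted p 0.03), lost its call in 5 of 6 fits with 1 library left out. Ccnd1 (log2 0.25), Ccnd2 (-0.04) and Ccnd3 (0.36) did not pass.

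Of the genes of DNA replication and mitosis, 15 of 18 fell in this comparison and none rose (median -1.60, with Cdk1 falling by 2.39 on the log2 scale), and their summed level was 2094 to 2327 CPM in AireKO and 430 to 969 in AireEEDdKO. Among RB pathway genes 1 of 18 rose and 8 fell (median -0.63), and of 12 p53 pathway genes 2 rose and none fell. Mesenchymal markers summed to 248 to 348 CPM in AireKO, where Pdgfra was at 0, and to 418 to 729 in AireEEDdKO. The cortical sums were 462 to 670 CPM in AireKO and 237 to 430 in AireEEDdKO, and the endothelial 38.9 to 40.8 and 30.5 to 34.4. The part of these markers in the members' differences was not tested.

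Aire was also removed on the EED-deficient background. In mTEChi AireEEDdKO against EEDcKO 3 members fell and none rose, beside 11.9% of genes lower, 10.6% higher and 13.3% past 2-fold. Ccnd1 was at 62.5, 60.7 and 87.5 CPM in AireEEDdKO against 98.9, 141 and 137 in EEDcKO (log2 -0.83, SE 0.17, edgeR adjusted p 0.0016), and Ccnd3 at 39.1, 33.8 and 37.5 against 51.0, 58.1 and 76.1 (log2 -0.75, SE 0.17, edgeR adjusted p 0.0038). Both were apart without overlap. Cdkn1b fell as well (log2 -0.63, SE 0.20, edgeR adjusted p 0.024), with overlapping groups and a call that was lost with age as a term. Cdkn2a (-0.45) and Cdkn1a (-0.26) did not pass. This comparison shares its AireEEDdKO libraries with the preceding one and its EEDcKO libraries with the first mTEChi one, so their values are not independent.

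The departure of the joint deletion from the sum of the separate ones was tested as an Aire by EED interaction in mTEChi. No member passed by edgeR, beside 1.57% of all genes. The lowest p-values among the members were those of Ccnd1 (-0.89, edgeR adjusted p 0.056), Cdkn1b (-0.84, edgeR adjusted p 0.1) and Ccnd3 (-0.56, edgeR adjusted p 0.24). DESeq2 called Ccnd1 alone (-0.86, adjusted p 0.021).

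In mTEClo no member passed between AireEEDdKO and EEDcKO by edgeR, beside 4.96% of genes higher, 3.06% lower and 5.30% past 2-fold, and 0 passed by DESeq2. The lowest p-values among the members were those of Ccnd2 (-0.35, edgeR adjusted p 0.095), Ccnd3 (-0.34, edgeR adjusted p 0.18) and Cdkn2b (0.46, edgeR adjusted p 0.21). Cdkn2a was at 17.5, 14.3 and 14.2 CPM in AireEEDdKO and at 11.7 to 15.7 in EEDcKO, and Ccnd1 at 97.7 to 111 and 89.2 to 130, so that both pairs of groups overlapped. Of the 18 genes of division 7 fell and none rose, from a sum of 855 to 1532 CPM in EEDcKO to 702 to 766 in AireEEDdKO.

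**Figure D3:**
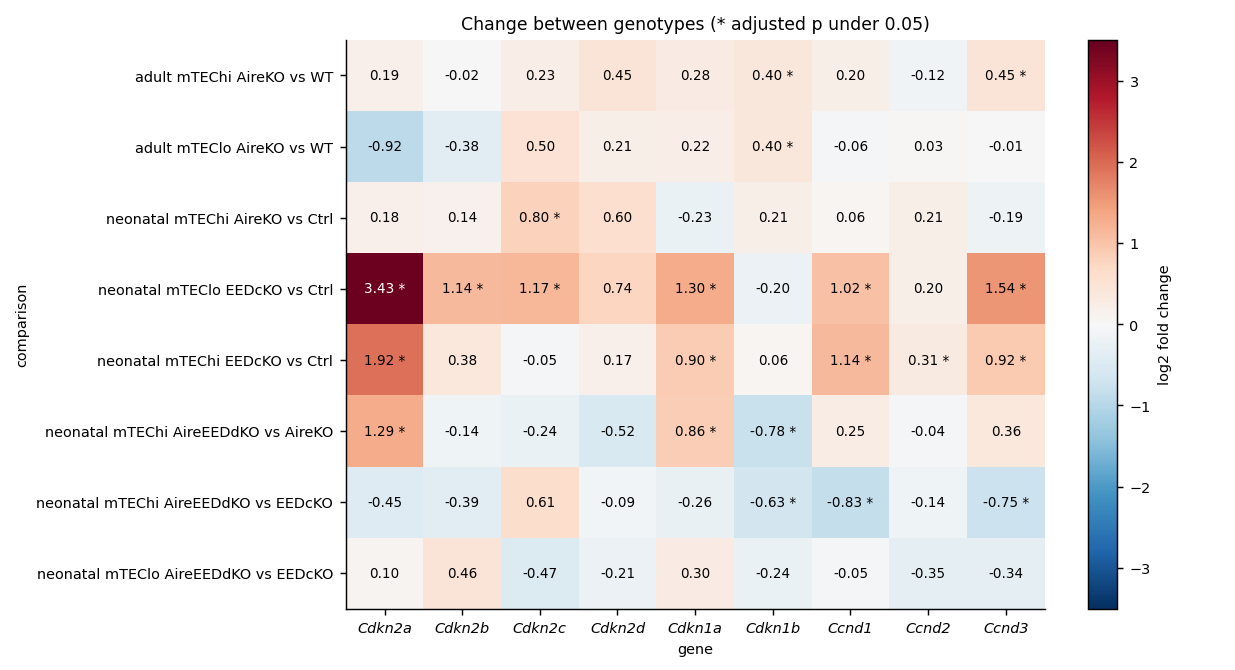
Log2 fold change of each member (columns) in 8 comparisons between genotypes (rows), with the value in each cell, red for higher and blue for lower, and an asterisk where the edgeR adjusted p was under 0.05. The row of neonatal mTEClo EEDcKO against Ctrl holds 6 asterisks with values of 1.02 to 3.43, and the rows of Aire deletion alone hold 1 or 2.

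After deletion of Aire alone 1 or 2 of the 9 members passed higher in each comparison, a share near that of all genes, and none passed lower. In neonatal mTEChi 1 of 9 rose and none fell, beside 13.3% of genes higher, 15.5% lower and 16.4% past 2-fold. Cdkn2c was at 13.4, 13.8, 9.28, 7.33 and 11.9 CPM in Ctrl and at 21.1, 19.1 and 17.1 in AireKO (log2 0.80, SE 0.27, edgeR adjusted p 0.03). The groups did not overlap, but the call was lost in 4 of 8 alternatives and in 5 of 8 fits with 1 library left out. The members' median was 0.18 and that of all genes 0.03. Genes of division and of the RB pathway each had 3 of 18 higher and none lower, and the division genes summed to 1458 to 1887 CPM in Ctrl and to 2094 to 2327 in AireKO.

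In adult mTEChi 2 members rose in AireKO and none fell, beside 24.5% of the 19310 genes tested higher, 30.1% lower and 23.4% past 2-fold. Ccnd3 was at 33.0 to 38.9 CPM in the 7 WT libraries, with a median of 35.8, and at 55.3, 52.5, 41.6 and 46.2 in AireKO (log2 0.45, SE 0.09, edgeR adjusted p 0.00024). Every AireKO library was above every WT library, and the call held under all 10 alternatives, library kind as a term included. Cdkn1b was at 63.1 to 85.7 CPM in WT (median 76.2) and at 103, 96.4, 103 and 101 in AireKO, also without overlap (log2 0.40, SE 0.11, edgeR adjusted p 0.0043). With library kind as a term its value turned to -0.25 (edgeR adjusted p 0.22), and with age as a term it was 0.24 (edgeR adjusted p 0.076). With the former Ccnd1 stood at 1.42 (edgeR adjusted p 0.0003) and Ccnd2 at 1.16 (edgeR adjusted p 0.00068), where without it they were 0.20 and -0.12. In mTEChi this term is estimated from the mTEClo AireKO libraries.

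In adult mTEClo Cdkn1b alone passed, beside 14.7% of genes higher, 10.3% lower and 8.31% past 2-fold. It was at 80.2 to 102 CPM in the 8 WT libraries, with a median of 86.6, and at 86.1, 90.9, 128 and 150 in AireKO (log2 0.40, SE 0.11, edgeR adjusted p 0.0086). Replicates 1 and 2 lay inside the WT range, and replicates 3 and 4, the libraries of 6 weeks with no mitochondrial counts, lay above it. Without those libraries the difference was 0.02 (edgeR adjusted p 0.94), and with a replicate block it was 0.36 (edgeR adjusted p 0.066). In mTEClo AireKO age and library kind cannot be told apart.

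For the cyclins the same libraries stood apart on the low side. Ccnd1 was at 121, 121, 56.1 and 48.3 CPM in mTEClo AireKO replicates 1 to 4 and at 63.8 to 109 in WT, and Ccnd2 at 344, 516, 201 and 153 against 220 to 354. Replicates 3 and 4 were thus below every WT library for both cyclins, and the fitted differences over all 4 were -0.06 and 0.03. With replicates 1 and 2 alone, both of 5 weeks and with mitochondrial counts, Ccnd1 (0.47, edgeR adjusted p 0.014) and Ccnd2 (0.55, edgeR adjusted p 0.0061) rose and Cdkn2b (-0.86, edgeR adjusted p 0.03) fell. In mTEChi AireKO, where all libraries lacked mitochondrial counts, the 5-week replicates 1 and 2 were again above the 6-week replicates 3 and 4 for Ccnd1 (68.1 and 69.5 against 31.9 and 43.4 CPM) and Ccnd2 (669 and 624 against 402 and 443).

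Cdkn2a passed in neither adult fraction, with values of opposite sign. In mTEClo it was at 3.12 to 10.2 CPM in WT (median 4.01) and at 2.73, 3.11, 2.10 and 2.45 in AireKO, without overlap (log2 -0.92, SE 0.36, edgeR adjusted p 0.064). In mTEChi it was at 3.75 to 9.92 CPM in WT (median 8.14) and at 6.08 to 13.7 in AireKO, with overlap (log2 0.19). In a test of the Aire effect in mTEChi against mTEClo, 1 member passed, Ccnd3 at 0.46 (SE 0.13, edgeR adjusted p 0.01), beside 24.4% of all genes. Cdkn2a had 1.10 (edgeR adjusted p 0.081). Ccnd3 was at 51.5 to 57.8 CPM in mTEClo AireKO and 47.6 to 61.4 in WT, so that its difference lay in mTEChi.

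Of the RB pathway genes 3 of 18 rose and 8 fell in adult mTEChi AireKO (median -0.24), with E2f7 falling by 2.12 on the log2 scale, and 5 rose and 1 fell in mTEClo. Division genes had none higher and 5 of 18 lower in mTEChi, with sums of 746 to 1096 CPM in WT and 419 to 739 in AireKO, and none passed in either direction in mTEClo. Of 12 p53 pathway genes 6 rose and 2 fell in mTEChi, and 3 rose and 1 fell in mTEClo. The cortical marker sum was 392 to 518 CPM in mTEChi WT and 565 to 680 in AireKO, and 213 to 263 against 333 to 521 in mTEClo, where the myeloid sum was 37.9 to 67.4 against 106 to 143. In mTEChi WT and AireKO the thymocyte sums were 88.1 to 122 and 44.9 to 57.2 CPM, and the myeloid 273 to 344 and 345 to 396. The 6 mature mTEC markers (Aire, Cd80, Cd40, H2-Aa, H2-Ab1, Fezf2) summed there to 2463 to 2952 and 1695 to 2081 CPM. Their part in the members' differences was not tested.

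**Figure D4:**
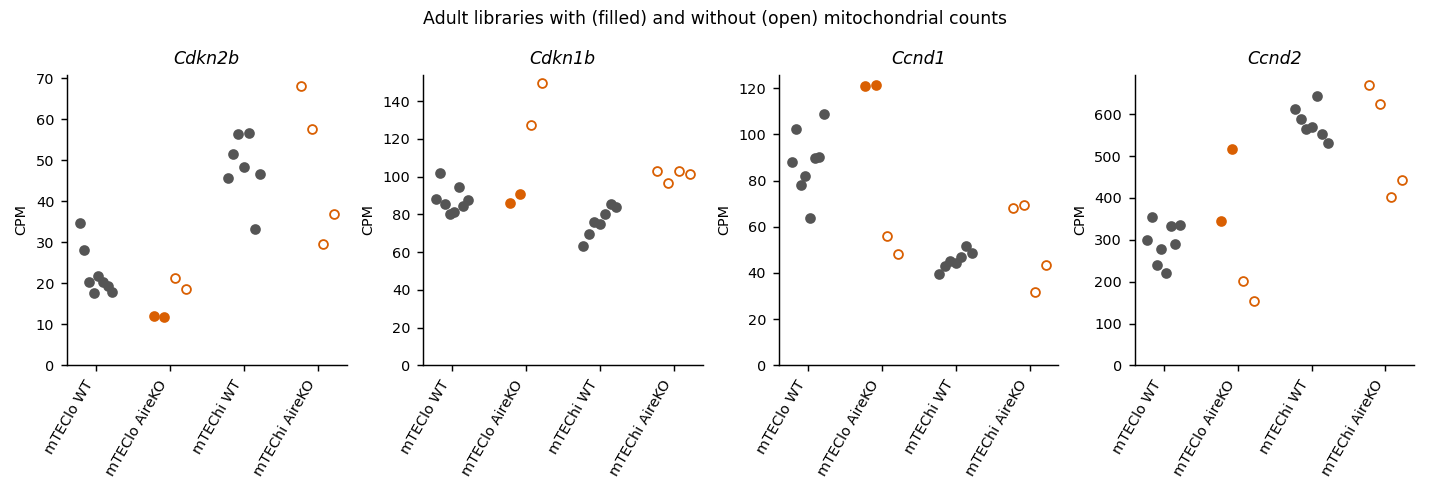
Cdkn2b, Cdkn1b, Ccnd1 and Ccnd2 in the adult libraries in TMM-scaled CPM, with open circles for the 6 libraries that had no mitochondrial counts. In mTEClo AireKO the filled and open circles stand apart for all 4 genes, for Cdkn1b at 86.1 and 90.9 against 128 and 150 CPM.

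In adult WT 5 of the 9 members were higher in mTEChi and 2 in mTEClo, beside 37.2% and 33.1% of all genes. At least 2-fold was passed by 36.0% of genes and by Cdkn2b and Cdkn2c. The members' median log2 difference was 0.57 and that of all genes 0.01. Cdkn2b was at 33.1 to 56.6 CPM (median 48.5) in mTEChi and at 17.7 to 34.7 (median 20.3) in mTEClo, with 1 mTEClo library above the lowest mTEChi library (log2 1.15, SE 0.17, edgeR adjusted p 7.6e-07). Cdkn2c was at 17.6 to 27.7 CPM (median 25.2) against 6.73 to 13.7 (median 10.5), without overlap (log2 1.22, SE 0.15, edgeR adjusted p 4.9e-08). Cdkn1a was higher in mTEChi by 0.57 (edgeR adjusted p 8.1e-05) and Cdkn2a by 0.67 (edgeR adjusted p 0.017) on the log2 scale, both with overlap. Markers of other cell types differed between these fractions as well, each without overlap: in mTEChi and mTEClo WT the myeloid sums were 273 to 344 and 37.9 to 67.4 CPM, the mesenchymal 201 to 367 and 63.0 to 97.3, the thymocyte 88.1 to 122 and 34.7 to 51.9, and the cortical 392 to 518 and 213 to 263. Their part in the members' differences was not tested.

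The D cyclins divided between the fractions. Ccnd2 was at 531 to 643 CPM (median 569) in adult WT mTEChi and at 220 to 354 (median 294) in mTEClo (log2 0.99, SE 0.17, edgeR adjusted p 5.5e-06). Ccnd1 was at 39.4 to 51.6 CPM (median 45.4) in mTEChi and at 63.8 to 109 (median 88.9) in mTEClo (log2 -0.93, SE 0.18, edgeR adjusted p 3.3e-05), and Ccnd3 at 33.0 to 38.9 (median 35.8) against 47.6 to 61.4 (median 54.9; log2 -0.61, SE 0.08, edgeR adjusted p 6.7e-08). None of the 3 overlapped. Cdkn1b, at 76.2 ± 7.91 CPM (SD, n = 7) in mTEChi and 87.9 ± 7.08 (n = 8) in mTEClo, did not pass (log2 -0.19), but did under 4 of the alternatives, at -0.19 to -0.27.

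In adult AireKO 5 members were higher in mTEChi and 1 in mTEClo, beside 27.8% and 30.1% of genes, and 35.3% past 2-fold. Cdkn2a was at 6.08 to 13.7 CPM in mTEChi and 2.10 to 3.11 in mTEClo (log2 1.77, SE 0.38, edgeR adjusted p 0.00022), and Cdkn2b at 29.6 to 68.1 against 11.8 to 21.3 (log2 1.51, SE 0.24, edgeR adjusted p 4.4e-06). Neither overlapped, and these were the 2 members past 2-fold. Cdkn2c (0.95), Cdkn1a (0.63) and Ccnd2 (0.83) were higher in mTEChi as well. Ccnd1 was lower in mTEChi at -0.66 (edgeR adjusted p 0.02), but between the AireKO libraries without mitochondrial counts alone its difference was 0.02 (edgeR adjusted p 0.95). In mTEChi and mTEClo AireKO the myeloid sums were 345 to 396 and 106 to 143 CPM, and the thymocyte 44.9 to 57.2 and 20.5 to 37.05. The cortical were 564.5 to 680 and 333 to 521. None of these overlapped, whereas the mesenchymal and endothelial sums did. Their part in the members' differences was not tested.

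In neonatal Ctrl 3 members were higher in mTEChi and none in mTEClo, beside 19.3% and 18.0% of genes, and 20.7% past 2-fold. Cdkn2b was at 29.6 to 44.1 CPM in mTEChi and 10.0 to 14.3 in mTEClo (log2 1.54, SE 0.25, edgeR adjusted p 7.8e-05), and Cdkn1a at 52.7 to 85.7 against 35.2 to 40.5 (log2 0.80, SE 0.20, edgeR adjusted p 0.0042). Both were apart. Cdkn2a passed at 1.52 (SE 0.48, edgeR adjusted p 0.016) with overlap, and this call was lost in 3 of 8 fits with 1 library left out. The 3 cyclins did not pass: Ccnd1, Ccnd2 and Ccnd3 had log2 differences of 0.09, 0.06 and -0.19. Values of the adult and neonatal fits stand side by side, since the tables were scaled apart and no test was made across them. In neonatal Ctrl the cortical marker sum was 364 to 749 CPM in mTEChi and 1512 to 2359 in mTEClo. Other marker sums were higher in mTEChi without overlap. The thymocyte sums were 98.2 to 122 and 27.3 to 40.4 CPM in mTEChi and mTEClo, and the myeloid 285 to 331 and 111 to 187. The mesenchymal were 247 to 330 and 131 to 134, and the endothelial 43.5 to 66.6 and 25.1 to 30.2. The part of these markers in the members' differences was not tested.

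In both EED-deficient genotypes Ccnd3 was lower in mTEChi than in mTEClo. In EEDcKO 1 member was higher in mTEChi and 2 were lower, beside 19.4% and 18.5% of genes, and 21.8% past 2-fold. Cdkn2b was higher in mTEChi (41.2 to 53.7 against 13.0 to 34.9 CPM, log2 0.78, edgeR adjusted p 0.0078). Ccnd3 was lower (51.0 to 76.1 against 94.9 to 121 CPM, log2 -0.81, SE 0.15, edgeR adjusted p 0.00033), as was Cdkn2c (log2 -0.71, edgeR adjusted p 0.047), whose call was lost in 7 of 8 alternatives. Cdkn2a differed by 0.01, with a 95% interval of -0.58 to 0.60. In AireEEDdKO 1 member was higher in mTEChi and 2 were lower, beside 18.9% and 20.2% of genes, and 21.0% past 2-fold, Ccnd3 among them. Ccnd3 was at 33.8 to 39.1 CPM in mTEChi and 75.1 to 95.1 in mTEClo (log2 -1.22, SE 0.17, edgeR adjusted p 1.5e-05), and Ccnd1 at 60.7 to 87.5 against 97.7 to 111 (log2 -0.57, SE 0.17, edgeR adjusted p 0.011). Ccnd2 was higher in mTEChi (log2 0.37, edgeR adjusted p 0.031), a call lost in 5 of 6 fits with 1 library left out. Thymocyte and myeloid marker sums were higher in mTEChi without overlap in both genotypes. The myeloid sums were 202 to 319 CPM in mTEChi and 41.6 to 176 in mTEClo of EEDcKO, and 246 to 409 and 60.4 to 209 in AireEEDdKO. Mesenchymal and cortical sums overlapped. The part of these markers in the members' differences was not tested.

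Of 18 genes of division 12 were higher and 1 lower in adult WT mTEChi than in mTEClo (median 1.16), beside 37.2% and 33.1% of all genes. In neonatal Ctrl none was higher and 5 were lower, beside 19.3% and 18.0% of all genes, and these were the replication genes Mcm2, Mcm4, Mcm5, Mcm6 and Mcm7, while the other 13 did not pass. RB pathway genes had 7 of 18 higher and 5 lower in adult WT, near the shares of all genes, and 1 higher and 7 lower in neonatal Ctrl. Of 12 p53 pathway genes 7 were higher and 3 lower in adult WT mTEChi, and none higher and 2 lower in neonatal Ctrl.

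**Figure D5:**
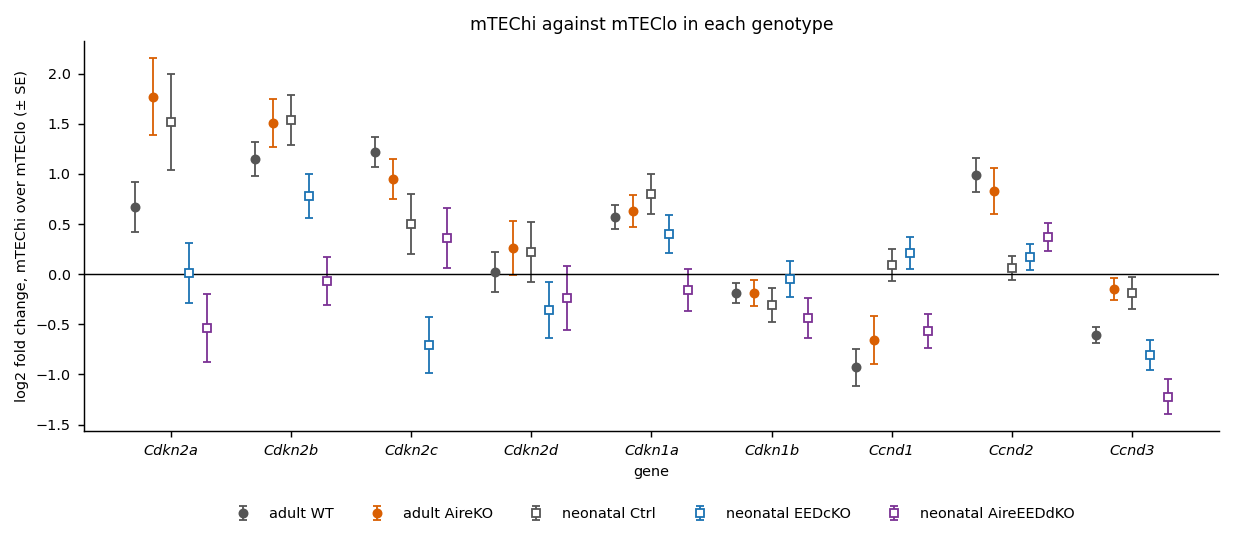
Log2 fold change of mTEChi over mTEClo with its standard error (bars) for each member in 5 genotypes, filled circles adult and open squares neonatal, which were fitted apart. Ccnd1 and Ccnd2 lie at -0.93 and 0.99 in adult WT and at 0.09 and 0.06 in neonatal Ctrl.

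Likeness of pattern was described by Pearson's r of log2 group means over the 11 groups, across 15377 genes. The groups share tables, library kinds and sorting, and the r values carry no test. Cdkn2a was most like Tha1 (0.975) and Lmna (0.958), Cdkn1a like Hspa2 (0.976) and Tmem151a (0.974), and Ccnd3 like Prss8 (0.981) and Fbxo17 (0.978). Ccnd1 was most like Ahr (0.962), Cdkn2b like Ccdc12 (0.95), Cdkn1b like Dnmt1 (0.948), Ccnd2 like Bmp5 (0.939), Cdkn2c like Rnf165 (0.937) and Cdkn2d like Pxmp4 (0.915).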

How the data were processed

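The values are raw gene counts that the authors deposited, 1 table for adult and 1 for neonatal libraries. Per the study's methods and processing notes, reads were trimmed with fastp 0.20.0, aligned to GRCm38 with STAR 2.7.3a, filtered by mapping quality with SAMtools 1.9, cleared of duplicates with Picard 2.21.1 and counted without strand by HTSeq 0.11.2. The Ensembl release is not given in the sources used here. Counting without strand gives overlapping genes each other's reads or discards them, and duplicate removal without molecular identifiers can compress high counts, so intervals from counts cover counting error only.

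Groups were taken from the sample labels. Each table was fitted as a whole with edgeR 4.0.16 (R 4.3.3) after filterByExpr and TMM scaling, which left 19310 adult and 20196 neonatal genes. Its quasi-likelihood F-test served for 16 comparisons, with Benjamini-Hochberg adjustment over all genes of a table. A gene passed at an adjusted p under 0.05, and a 2-fold rule was used beside it. CPM are TMM-scaled, levels between genes are per kb of exon, and 95% intervals are for the fitted log2 fold change. These intervals use a normal approximation with the SE taken from the F statistic, so they are somewhat narrower than the F-test implies. Adult libraries had a common dispersion of 0.021 and neonatal libraries of 0.0392. The fit was tested on simulated counts. Library totals were 1602125 to 4817418, and no 2 replicates agreed within sampling noise.

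The 9 members were all named, and the pathway and marker lists and the genes most alike in pattern (the highest r) followed fixed rules. The printed promoters were chosen with the differences after EED loss known, and not for every member that rose. The members and lists were chosen with earlier results of these data known. Alternatives were RLE factors, library size alone, no filter, a filter requiring 10 counts throughout a group, DESeq2 1.42.0, age as a term, fits on the compared groups alone or on males, a replicate block, and each library left out. Library kind as a term and the AireKO libraries without mitochondrial counts alone were added after seeing the data. Replicate numbers paired the libraries, with every correlation of deviations over 0.1, in adult AireKO mTEChi and mTEClo (0.162 to 0.347), neonatal mTEChi AireEEDdKO and AireKO (0.225 to 0.32) and neonatal AireEEDdKO mTEChi and mTEClo (0.376 to 0.509), as a hint from the data. Promoters were read from RefSeq windows, with no entry for Ccnd1 and Ccnd2.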

Additional observations from a re-analysis of the deposited data

Results flagged for a closer look

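The effect of Aire deletion on Ccnd3 differed between the adult fractions, with a log2 difference of 0.46, mTEChi minus mTEClo (edgeR adjusted p 0.01). In mTEChi all 4 AireKO libraries were above all 7 WT libraries, and in mTEClo the groups overlapped. Genotype and the lack of mitochondrial counts cannot be told apart in mTEChi. The difference passed with library kind as a term and with any 1 library left out (0.42 to 0.54). That term is estimated from the mTEClo AireKO libraries, where library kind goes with age. Neither alternative can thus separate genotype from library kind in mTEChi. In 54 Dixon tests, the 9 members in the 6 groups of 4 or more libraries, no single library was flagged. The Dixon test looks for a single extreme value. It cannot register a split into pairs, such as that of adult mTEClo AireKO for Ccnd1 and Ccnd2. The 5 groups of 3 libraries were not tested.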

How the results depend on the processing

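Of 2718 results of members under alternatives, 2604 kept their side of the threshold, 74 lost a call, 34 gained one and 6 reversed. A reversal was a change of sign where the main fit or the alternative passed. Changes of sign where neither passed are among the 2604. The 6 reversals were in adults. With library kind as a term, in mTEChi AireKO against WT Ccnd2 was 1.16 and Cdkn1b -0.25, in the Aire effect Ccnd2 was 0.61, and in AireKO mTEChi against mTEClo Ccnd1 was 0.02, as it was (0.02) between AireKO libraries without mitochondrial counts. Without these libraries Ccnd1 in mTEClo AireKO against WT was 0.47. The cause was not tested.

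Requiring 2-fold as well, the number of members passing was 0 in adult mTEChi and mTEClo AireKO against WT, the Aire effect, neonatal mTEChi AireKO against Ctrl, AireEEDdKO against EEDcKO and EEDcKO mTEChi against mTEClo, 1 in mTEChi AireEEDdKO against AireKO and in AireEEDdKO mTEChi against mTEClo, and 2 in adult mTEChi against mTEClo (WT, AireKO) and mTEChi EEDcKO against Ctrl, since the rule is stricter. In adult mTEChi AireKO against WT, 1 passed with library size alone, 1 with age as a term and 4 in males. In adult mTEClo AireKO against WT, 3 passed without the libraries lacking mitochondrial counts, and 0 with age, in males or with a replicate block. The Aire effect had 3 with library kind as a term. In neonatal mTEChi AireKO against Ctrl, 0 passed with library size alone, no filter, the filter at 10 counts or a replicate block, and 2 with age. DESeq2 gave 1 for the Aire by EED interaction, fitting only the groups compared gave 1 for EEDcKO mTEChi against mTEClo, and age gave 1 for the EED effect between fractions.

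Leaving out 1 library gave 2 to 3 members in adult mTEChi and 0 to 2 in adult mTEClo AireKO against WT, 7 to 7 and 5 to 6 between adult WT and AireKO fractions and 1 to 1 for the Aire effect. In neonates it gave 4 to 5 for EEDcKO, 0 to 1 for AireKO, 1 to 3 for AireEEDdKO against AireKO, 2 to 3 against EEDcKO and 0 to 2 for the interaction in mTEChi, 6 to 7 for EEDcKO and 0 to 1 for AireEEDdKO against EEDcKO in mTEClo, 2 to 3, 1 to 4 and 1 to 3 between Ctrl, EEDcKO and AireEEDdKO fractions, and 0 to 0 for the EED effect. Where replicate numbers paired libraries, the replicate block changed no call of a member. Where they only shared a number, it lost 4 calls: Cdkn1b in adult mTEClo AireKO, Ccnd2 (0.21) in mTEChi EEDcKO, Cdkn2c (0.68) in neonatal mTEChi AireKO and Cdkn2c (-0.69) between EEDcKO fractions. Between the fractions of neonatal Ctrl and of EEDcKO, age and sex match libraries of unlike replicate numbers. The block by number thus joined libraries of unlike age there, and a block by age and sex was not fitted. Library size alone moved the all-gene median by -0.21 in neonatal mTEChi AireKO, by -0.13 in AireEEDdKO against EEDcKO, by -0.12 in adult mTEChi AireKO and by -0.11 in the Aire effect. Depth limits Cdkn2a most, with 1 to 7 counts in mTEClo Ctrl.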
